A study of Mus musculus with 66 samples.

Results

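The genes described here encode the writers, erasers and readers of histone acetylation. They were chosen by symbol alone, and the choice used no measured value. The symbols were the numbered Hdac and Kat genes, the sirtuins, the numbered Brd genes, the Brpf and Tada genes, the Ncoa coactivators, the Ncor and Sin3 corepressors, Ep300, Crebbp and Taf1. This gave 50 members among the 30084 gene symbols of the deposited count table. One of them, Kat6b-ps2, is a processed pseudogene and had 0 counts in all 66 libraries. The other 49 all passed the filter on low counts and were among the 16145 genes tested. The lowest count of any of these 49 in any library was 92, and their median counts ran from 229.5 to 9977.5.

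Acetyltransferases move an acetyl group from acetyl-CoA to lysines in the histone tails, which loosens the contact of histones with DNA and marks active promoters and enhancers. Zinc-dependent deacetylases (HDACs) and NAD-dependent sirtuins take the group off again, and several HDACs work inside corepressor complexes built on the Sin3 or NCoR scaffold proteins. Bromodomains bind the acetylated lysine. In neurons Crebbp and Ep300 act as coactivators of activity-regulated transcription, and Hdac2 is known as a restraint on synaptic gene expression.

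The cultures were neurons from wildtype E16.5 mouse embryos, kept apart by sex, with no strain named in the labels. Lentivirus brought in a short hairpin RNA (shRNA), which depletes a matching transcript, and one group of each sex had no virus. The virus stayed on until day 6 in culture and RNA was taken on day 10, at doses meant to leave about 50% of the target. The targets were Ash1l, a histone methyltransferase, Chd8, a chromatin remodeller, Dnmt3a, a DNA methyltransferase, Kdm6b, a histone demethylase, Kmt2c, a histone methyltransferase, Mbd5, a methyl-binding domain protein, Med13l, a subunit of the Mediator kinase module, Setd5, a SET domain protein, and Tbr1, a transcription factor of cortical excitatory neurons. A nontargeting shRNA was the control, and each of the 22 groups of target and sex had 3 libraries. The labels speak of triplicate wells and name no separate animals, so p-values measure the spread between wells. The series asks whether depletion of different chromatin regulators changes the same transcripts and whether the sexes differ.

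Libraries held 13759741 to 66558546 counts. The targeted mRNAs were at 22.3% to 54.3% of the nontargeting mean, with Setd5 in males the highest. By edgeR, 2 targets did not reach an adjusted p under 0.05 after their own shRNA. These were Kdm6b (0.0953 in males and 0.856 in females) and, in males, Setd5 (0.402). In males the library labelled Setd5 replicate 1 had 141 CPM (counts scaled to a common library size) of Setd5, against 42.9 and 42.7 in the others. The library labelled Kdm6b replicate 1 had 44.9 CPM of Setd5. Kdm6b was at 39.9 CPM in the library labelled Kdm6b replicate 1, against 17.2 and 17.2 in the others of its group. In the library labelled Setd5 replicate 1 Kdm6b was at 23.1 CPM, against 47.2 and 62.6 in the others. No member was called in either male comparison, with or without these libraries. In females the library labelled Setd5 replicate 1 held 612 counts of Ddx3y and 574 of Kdm5d, both Y-linked, where the others held 0. It held 0 counts of Uty, also Y-linked. Neuron markers summed to 5407 to 7970 CPM, astrocyte markers to 41.2 to 305 CPM and microglia markers to 0.406 to 2.95 CPM. These were bulk cultures, in which fewer cells of a type and less RNA per cell cannot be told apart.

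Levels between genes were compared as CPM per kb of merged exon, in the nontargeting libraries. In females Hdac2, a class I deacetylase, averaged 38.4 ± 9.50 (SD, n = 3), Brd2, a bromodomain reader of the BET family, 35.1 ± 5.51, and Hdac5, a class II deacetylase, 30.5 ± 3.06. These 3 overlapped in their libraries and are not separated by the spread. In males Brd2 (36.7 ± 2.39), Hdac5 (35.7 ± 3.82) and Hdac2 (33.4 ± 3.18) again had the highest means. At the low end stood Hdac8 with 1.64 ± 0.243 in females, Sirt5, a mitochondrial sirtuin, with 1.75 ± 0.108, and Hdac7 with 1.99 ± 0.562. Among the acetyltransferases Kat2a, the catalytic subunit of SAGA and ATAC, was highest with 20.3 ± 1.63 in females, and its paralog Kat2b lowest with 2.23 ± 0.467. Crebbp and Ep300 were close to each other, at 4.88 ± 1.74 and 4.30 ± 1.20. The sirtuin with the highest mean was Sirt2 (12.6 ± 0.499), and the libraries of no other sirtuin reached its range.

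**Figure D1:**
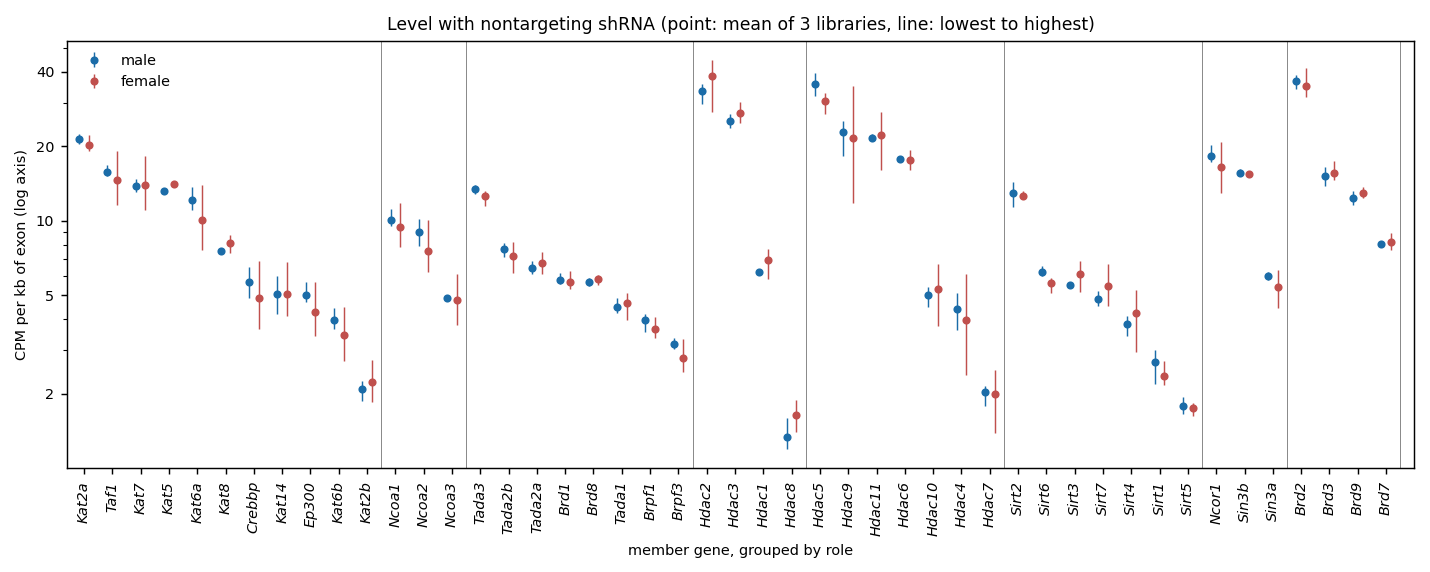
Level of 47 of the 49 tested members with nontargeting shRNA, in CPM per kb of exon on a log axis, by role and sex. Points are means of 3 libraries and lines run from the lowest to the highest library; Hdac2, Brd2 and Hdac5 are at the top and Hdac8 at the bottom.

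Knockdown and nontargeting libraries were compared within a sex, and a gene was called where its adjusted p was under 0.05. Over the 18 comparisons there were 19 calls among the members, 8 higher and 11 lower, in 12 different genes. Over the same 18 fits together 2.48% of all genes were called, and the share in each comparison with member calls is given below. Chd8 shRNA gave 4 calls in males and 5 in females, Med13l shRNA 3 and 6, and Setd5 shRNA 1 in females. The other 13 comparisons gave 0 calls among members with edgeR. In those, between 0 and 5 members had an unadjusted p under 0.05, and DESeq2 called 1 member each after Ash1l shRNA in females (beside 1.63% of all genes) and after Kmt2c shRNA in males and females (beside 0.130% and 0.242%). The deacetylases of classes I, II and IV had no call in any comparison in this model. With the replicate number in the model, in comparisons whose numbers paired the libraries, class I had 3 members higher for Med13l in females and 1 lower for Chd8 in each sex. Classes II and IV then had 1 lower for Chd8 in males and 2 in females, 2 lower for Med13l in females and 2 lower for Setd5 in females. The smallest unadjusted p was 0.00603 for Hdac1 among class I (log2 fold change 0.46 after Med13l shRNA in females, adjusted p = 0.0550) and 0.00997 for Hdac11 among the rest (log2 fold change -0.56 after Chd8 shRNA in females, adjusted p = 0.0828). In males, knockdown and control libraries did not overlap for 25, 27 and 15 of 49 members after Chd8, Med13l and Ash1l shRNA. Most of these had no call. In females the numbers were 11, 5 and 4. The share of all genes is not given here, and a lack of overlap is given below as a description.

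**Figure D2:**
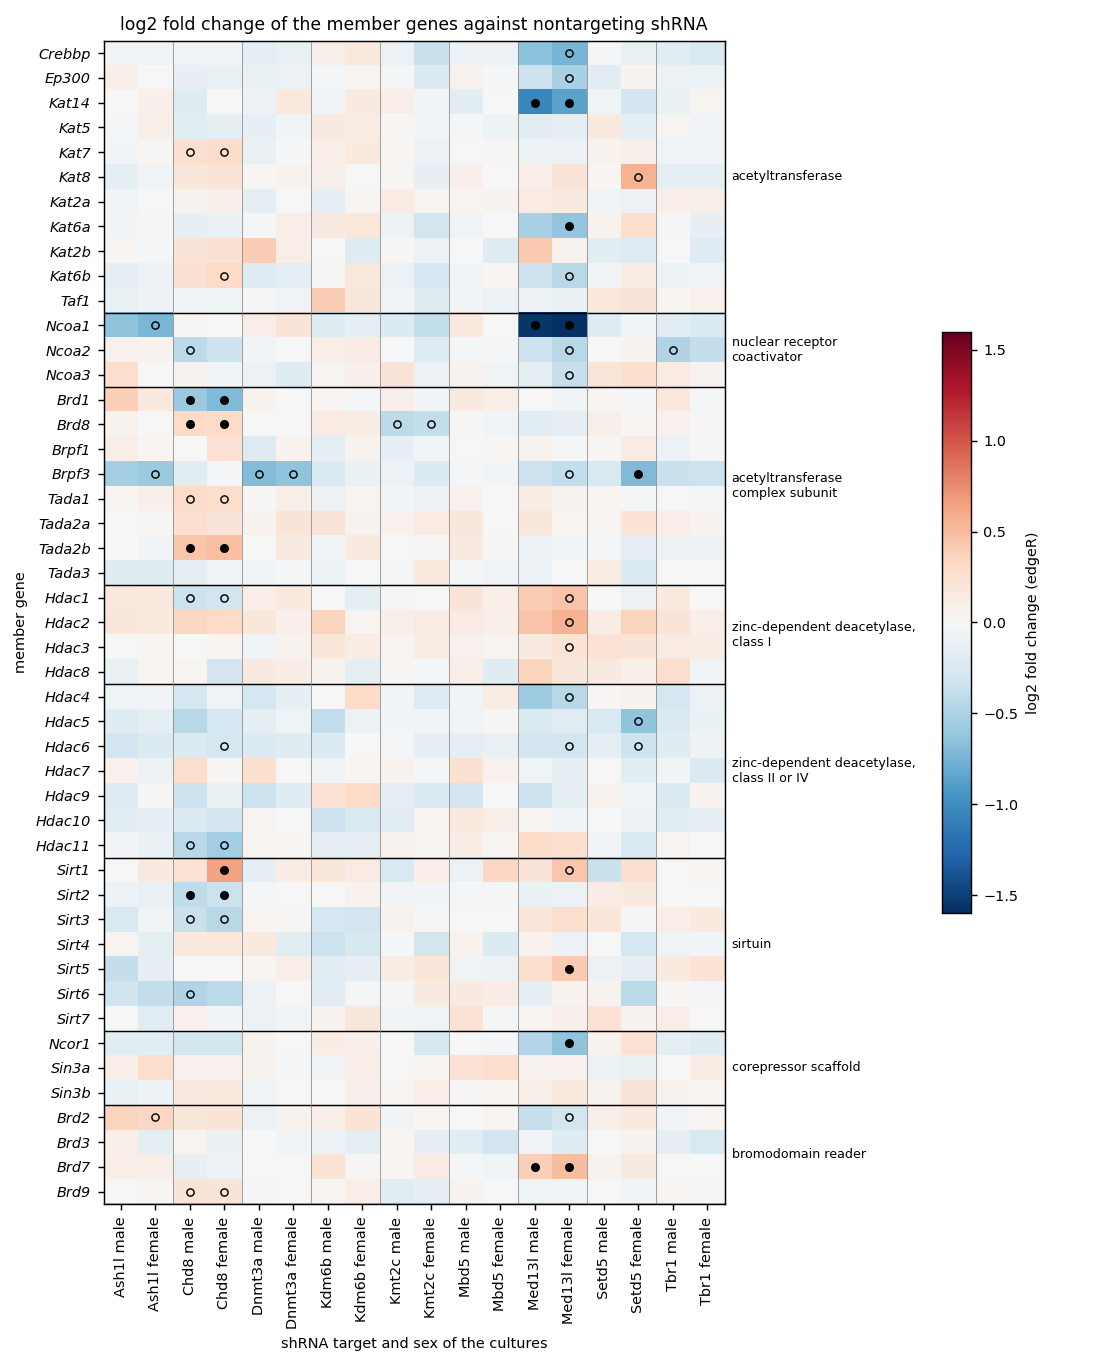
log2 fold change against nontargeting shRNA for 47 of the 49 members (rows, by role) in the 18 comparisons (columns). Filled circles mark the 19 calls of the main model, and open circles mark members called only with the replicate number in the model, in comparisons whose replicate numbers paired the libraries; the filled circles lie in the Chd8, Med13l and female Setd5 columns.

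The sequences upstream of 6 members are shown because their transcripts gave calls in both sexes, as did Brd8. They are the 250 bases before the RefSeq transcript start (GRCm38.p6), read 5′ to 3′ along the gene. Capitals mark matches, on either strand, to the ETS motif CCGGAAGT, the CCAAT box and the GC box GGGCGG.
Tada2b, chr5:36484286-36484535, minus strand: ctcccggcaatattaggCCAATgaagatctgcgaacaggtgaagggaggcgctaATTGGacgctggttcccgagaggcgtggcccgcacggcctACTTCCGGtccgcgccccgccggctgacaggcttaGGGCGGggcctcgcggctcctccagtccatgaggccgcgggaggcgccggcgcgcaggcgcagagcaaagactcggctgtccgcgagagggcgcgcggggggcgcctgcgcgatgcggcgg
Sirt2, chr7:28766502-28766751, plus strand: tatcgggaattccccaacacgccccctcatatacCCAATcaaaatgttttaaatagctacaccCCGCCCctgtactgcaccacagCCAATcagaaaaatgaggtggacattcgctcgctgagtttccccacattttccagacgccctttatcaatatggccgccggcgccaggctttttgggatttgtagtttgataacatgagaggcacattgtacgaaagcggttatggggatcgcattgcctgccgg
Brd1, chr15:88734220-88734469, minus strand: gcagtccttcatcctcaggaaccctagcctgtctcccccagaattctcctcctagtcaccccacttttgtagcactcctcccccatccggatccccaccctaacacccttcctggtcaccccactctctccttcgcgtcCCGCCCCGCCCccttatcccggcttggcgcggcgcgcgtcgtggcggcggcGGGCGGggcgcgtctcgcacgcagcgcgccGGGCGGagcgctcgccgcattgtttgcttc
Ncoa1, chr12:4477183-4477432, minus strand: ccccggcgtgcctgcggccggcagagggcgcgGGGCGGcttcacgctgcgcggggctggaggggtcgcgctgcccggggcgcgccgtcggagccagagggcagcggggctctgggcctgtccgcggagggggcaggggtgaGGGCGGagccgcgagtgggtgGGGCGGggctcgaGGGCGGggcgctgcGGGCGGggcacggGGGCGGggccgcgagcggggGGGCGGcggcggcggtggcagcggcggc
Kat14, chr2:144368782-144369031, plus strand: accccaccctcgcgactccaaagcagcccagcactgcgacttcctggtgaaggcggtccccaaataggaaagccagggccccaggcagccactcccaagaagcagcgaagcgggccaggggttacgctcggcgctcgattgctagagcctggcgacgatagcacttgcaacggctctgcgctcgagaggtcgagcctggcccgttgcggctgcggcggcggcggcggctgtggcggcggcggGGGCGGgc
Brd7, chr8:88362173-88362422, minus strand: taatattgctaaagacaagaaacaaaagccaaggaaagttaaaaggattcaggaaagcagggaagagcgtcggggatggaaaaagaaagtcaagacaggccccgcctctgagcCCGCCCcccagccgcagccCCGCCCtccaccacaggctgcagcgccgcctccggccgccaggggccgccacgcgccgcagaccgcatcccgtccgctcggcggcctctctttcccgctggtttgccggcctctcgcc
Each of these 6 stretches held a GC box. The Ncoa1 stretch was 85.6% G and C and held 7 GC boxes, and the Sirt2 stretch was 50.0% G and C with 2 CCAAT boxes, as many as that of Tada2b. The 4 GC boxes of Brd1 include a pair that share 1 base. Of these 6 stretches, Tada2b's held the ETS motif and the others did not, and those of Brd1, Ncoa1, Kat14 and Brd7 held no CCAAT box. RefSeq promoters were found for 39 of the 50 members, with 54 starts. A GC box stood in 66.7% of these, against 32.7% of all 32851 promoters in the table. The CCAAT box stood in 31.5% against 33.8%, and the ETS motif in 5.56% against 2.88%. The set of all promoters was not matched to the members by expression or by G and C content. A match of letters is a description and not a binding site.

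After Chd8 shRNA the transcripts of acetyltransferase complex subunits moved in both directions. Brd1 fell, and Tada2b and Brd8 rose, in both sexes. Sirt2 fell in both sexes and Sirt1 rose in females. In males 4 of 49 members (8.16%) were called, beside 9.82% of all genes, and in females 5 (10.2%), beside 9.33% of all genes, so the members' share was near that of the genome. The median log2 fold change of the members was 0.001 in males and -0.049 in females, against 0.000 over all genes in each sex. Without nontargeting male replicate 2 or 3 the count was 2 or 1, beside 6.78% and 6.53% of all genes in the same fits, and without Chd8 male replicate 1 or 3 it was 2, beside 6.65% and 5.87%. In females it was 3 without nontargeting replicate 1 (6.46%), 1 without nontargeting replicate 3 (6.51%) and 1 without Chd8 replicate 1 (3.60%). Inhibitory neuron markers summed to 898 to 1131 CPM in males against 1169 to 1467 in the controls, and to 823 to 1102 against 927 to 1307 in females, with 1 of 3 called lower in each sex. Astrocyte markers summed to 41.5 to 106 CPM against 102 to 128 in females and to 58.6 to 141 against 65.9 to 119 in males, with none of 6 called. Excitatory neuron markers summed to 585 to 643 CPM against 718 to 753 in females, without overlap and with 1 of 4 called lower, and to 512 to 682 against 610 to 673 in males with none called. General neuron markers summed to 6209 to 6606 CPM against 6558 to 7294 in females and to 6230 to 6915 against 6603 to 6775 in males, with 1 of 6 called lower in each sex. The part of these shifts in the results was not tested.

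Brd1 (chr15:88687034-88734233, minus strand) is the scaffold that ties the acetyltransferase Kat7 to its complex. Its levels after Chd8 shRNA were 29.7, 28.0 and 38.4 CPM in males and 29.1, 31.1 and 26.7 CPM in females. The nontargeting libraries had 46.5, 47.2 and 51.8 CPM in males and 44.9, 52.9 and 44.5 CPM in females. Every Chd8 library was below every control of its sex, and male replicate 3 was the highest of the knockdown libraries. The log2 fold change was -0.60 ± 0.125 (SE) in males (adjusted p = 0.000631) and -0.71 ± 0.125 in females (adjusted p = 5.78e-05). The call was kept in each of the 12 fits that left out 1 library of these groups. The paralogous scaffolds were not called: Brpf1 had log2 fold changes of 0.00 and 0.23, and Brpf3 of -0.18 and -0.02, in males and females.

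Tada2b (chr5:36473670-36484285, minus strand) is an adaptor of the SAGA acetyltransferase module. Its levels were 39.6, 36.5 and 42.8 CPM after Chd8 shRNA against 30.8, 27.1 and 29.5 CPM in male controls. In females they were 39.3, 39.0 and 36.0 CPM against 27.5, 31.1 and 23.3 CPM. The groups did not overlap in either sex. The rise was 1.36-fold in males (log2 0.44 ± 0.145, adjusted p = 0.0395) and 1.40-fold in females (log2 0.48 ± 0.145, adjusted p = 0.0242). The male call was lost without nontargeting replicate 1, 2 or 3 (adjusted p = 0.0661, 0.159 and 0.0959) and without Chd8 replicate 1 or 3 (0.0916 and 0.179). The female call was lost without nontargeting replicate 1 or 3 (0.0660 and 0.179) and without Chd8 replicate 1 or 2 (0.111 and 0.0554). Both were lost with no filter on low counts (0.0742 and 0.0540). Of Tada2b's exon bases, 10.8% overlap Grpel1 on the opposite strand, and whether the counting used strand is not given in the sources used here.

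Brd8, a bromodomain subunit of the TIP60 acetyltransferase complex, had 74.3, 75.3 and 76.9 CPM after Chd8 shRNA in males against 62.7, 58.1 and 60.3 CPM. In females it had 86.1, 64.9 and 77.7 CPM against 62.7, 58.4 and 64.3 CPM. All knockdown libraries were above the controls of their sex, female replicate 2 by the smallest gap. The rise was 1.25-fold in males (adjusted p = 0.0230) and 1.23-fold in females (adjusted p = 0.0361). The male call was lost without nontargeting replicate 2 or 3 (0.101 and 0.0707), without Chd8 replicate 1 or 3 (0.0511 and 0.0824) and with no filter (0.0506). The female call was lost without nontargeting replicate 1, 2 or 3 (0.0767, 0.134 and 0.0570), without Chd8 replicate 1 or 3 (0.351 and 0.0973), with no filter (0.0873) and against no virus (0.468).

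Sirt2 (chr7:28766735-28788661, plus strand) encodes a largely cytoplasmic sirtuin that deacetylates tubulin and, in mitosis, histone H4. After Chd8 shRNA it stood at 50.2, 46.2 and 50.9 CPM in males against 65.6, 57.6 and 71.9 CPM, and at 50.1, 53.2 and 47.0 CPM in females against 62.5, 61.7 and 66.4 CPM. No knockdown library reached a control. The log2 fold change was -0.41 ± 0.0966 in males (adjusted p = 0.00317) and -0.34 ± 0.0966 in females (adjusted p = 0.0148). The male call was lost without nontargeting replicate 3 (0.0507). The female call was lost without nontargeting replicate 3 (0.0760), without Chd8 replicate 1 or 3 (0.0691 and 0.0852) and with no filter (0.0674). Sirt1, a nuclear sirtuin, had 27.9, 16.2 and 14.9 CPM in females against 14.5, 11.6 and 11.7 CPM, so that 1 library was far above the others. Its log2 fold change was 0.64 ± 0.202 (adjusted p = 0.0334). The call was lost without Chd8 replicate 1 (0.564), without nontargeting replicate 2 or 3 (0.114 and 0.127) and against no virus (0.386). In males Sirt1 had a log2 fold change of 0.23 ± 0.201 (adjusted p = 0.580), and the difference between the sexes was -0.41 (95% interval -0.98 to 0.16).

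By the rule used here, correlations above 0.1, the replicate numbers paired the Chd8 libraries in both sexes. The correlations were 0.12 to 0.16 in males, just above that limit, and 0.33 to 0.56 in females. With the number in the model 12 members (24.5%) were called in males and 13 (26.5%) in females, beside 22.1% and 21.1% of all genes. In both sexes these added Brd9, Tada1 and Kat7 as higher, and Hdac1, Hdac11 and Sirt3 as lower. Tada1, another SAGA subunit, had a log2 fold change of 0.31 in males and 0.28 in females (adjusted p = 0.00948 and 0.0211 with the number in the model, 0.145 and 0.202 without it). Hdac11, the class IV deacetylase, had -0.44 and -0.56 (0.00848 and 0.00252 with it, 0.205 and 0.0828 without it).

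After Med13l shRNA the acetyltransferase-linked transcripts Ncoa1 and Kat14 fell and the bromodomain gene Brd7 rose in both sexes. In females Ncor1 and Kat6a also fell and Sirt5 rose. The calls came to 3 of 49 members (6.12%) in males, beside 8.06% of all genes, and 6 (12.2%) in females, beside 10.2%. The members' share was again near the background in this model, which had no replicate number. Their median log2 fold change was -0.074 in males and -0.091 in females, against -0.007 and 0.002 over all genes. In males the count was 1 without nontargeting replicate 3, beside 4.87% of all genes in that fit. In females it was 2 without nontargeting replicate 2 (5.44% of all genes) and 2 without Med13l replicate 1 (3.35%). It was 14, or 28.6% of members, without Med13l replicate 2, where 18.7% of all genes were called, and it was 10 against no virus (beside 11.4% of all genes). Neuron markers summed to 5457 to 6137 CPM in males against 6603 to 6775 in the controls, and to 5407 to 6173 against 6558 to 7294 in females, with 1 of 6 called lower in each sex. Inhibitory neuron markers summed to 754 to 1009 CPM against 1169 to 1467 in males (2 of 3 called lower) and to 603 to 1224 against 927 to 1307 in females (1 of 3). The part of these shifts in the results was not tested.

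Ncoa1 (chr12:4247362-4477182, minus strand) encodes a nuclear receptor coactivator that recruits Crebbp and Ep300. Its levels were 28.2, 28.5 and 32.1 CPM after Med13l shRNA in males against 81.7, 83.6 and 95.7 CPM. In females they were 15.6, 40.3 and 24.7 CPM against 67.4, 101 and 74.3 CPM. The groups were far apart, and in females replicate 2 was highest in both. Ncoa1 was at 0.340 of the control level in males (log2 -1.56 ± 0.219, adjusted p = 1.08e-06) and at 0.332 in females (log2 -1.59 ± 0.219, adjusted p = 7.85e-07), the largest change of any member in any of the 18 comparisons. The call was kept in all 12 fits that left out 1 library. The male and female effects differed by 0.03 on the log2 scale (95% interval -0.58 to 0.64), from -0.23 to 0.44 without 1 library. The other two coactivators were not called: Ncoa2 had log2 fold changes of -0.33 and -0.44 and Ncoa3 of -0.15 and -0.37.

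Kat14 (chr2:144368983-144407676, plus strand) encodes an acetyltransferase-like subunit of the ATAC complex. It stood at 11.5, 11.7 and 11.2 CPM in males against 23.3, 19.7 and 28.0 CPM. In females it stood at 7.56, 20.5 and 11.2 CPM against 19.7, 32.0 and 19.3 CPM. The male groups did not overlap, while female Med13l replicate 2 lay above 2 of the 3 controls and below the control of its own number. The log2 fold change was -1.04 ± 0.271 in males (adjusted p = 0.00878) and -0.86 ± 0.269 in females (adjusted p = 0.0314). The male call was lost without nontargeting replicate 3 (0.0684). The female call was lost without nontargeting replicate 2 (0.294), without Med13l replicate 1 or 3 (0.344 and 0.130) and with no filter (0.0517). Kat14 shares 693 exon bases, 14.7% of its length, with Pet117 on the same strand, so reads there could be credited to either gene.

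Brd7 (chr8:88331039-88362194, minus strand) encodes a bromodomain subunit of the PBAF remodelling complex. Its levels were 51.3, 51.2 and 62.8 CPM in males against 42.3, 41.3 and 43.6 CPM, and 65.3, 56.4 and 60.3 CPM in females against 46.9, 42.5 and 40.1 CPM. All knockdown libraries were above the controls. The rise was 1.30-fold in males (log2 0.38 ± 0.115, adjusted p = 0.0302) and 1.41-fold in females (log2 0.49 ± 0.115, adjusted p = 0.00291). The male call was lost without nontargeting replicate 1, 2 or 3 (0.0876, 0.102 and 0.0686), without Med13l replicate 3 (0.248) and with no filter (0.0771). The female call was kept without any 1 library and was lost against no virus (0.0576).

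Ncor1, the scaffold that holds Hdac3, had 94.5, 174 and 141 CPM in females after Med13l shRNA against 167, 266 and 202 CPM. The groups overlapped, and replicate 2 was highest in both, while each Med13l library was below the control of its own number. Its log2 fold change was -0.64 ± 0.173 (adjusted p = 0.0105), and the call was lost without nontargeting replicate 2 (0.178) or Med13l replicate 1 (0.236). Kat6a, the MOZ acetyltransferase, had 39.5, 79.3 and 59.9 CPM against 69.8, 128 and 79.4 CPM. These groups also overlapped, with each Med13l library below the control of its own number. Its log2 fold change of -0.63 ± 0.212 (adjusted p = 0.0450) was lost as a call without nontargeting replicate 2 (0.488), without Med13l replicate 1 or 3 (0.439 and 0.103) and with no filter (0.0712). Sirt5, a mitochondrial desuccinylase, had 16.3, 13.1 and 13.1 CPM against 11.2, 9.91 and 10.8 CPM, without overlap. Its rise of 1.33-fold (adjusted p = 0.0414) was lost as a call without nontargeting replicate 1, 2 or 3 (0.0541, 0.183 and 0.0795), without Med13l replicate 1 (0.321) and with no filter (0.0946). In males the 3 had log2 fold changes of -0.47 (Ncor1, adjusted p = 0.0855), -0.52 (Kat6a, 0.130) and 0.27 (Sirt5, 0.249). The male minus female differences were 0.17 (95% interval -0.32 to 0.66), 0.12 (-0.48 to 0.72) and -0.15 (-0.53 to 0.24), none of them called. Without 1 library they ran from -0.03 to 0.38, from -0.19 to 0.38 and from -0.20 to -0.03.

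The replicate numbers paired the female Med13l libraries. The fits above that left out 1 library had no number in the model. The female calls made without the number were kept with it. With the number in the model 20 members (40.8%) were called in females, 6 higher and 14 lower, beside 27.9% of all genes. Among the lower were then Crebbp (log2 fold change -0.74), Ep300 (-0.52), Kat6b (-0.44), Ncoa2, Ncoa3, Brd2, Hdac4, Hdac6 and Brpf3. Crebbp had an adjusted p of 3.85e-05 with the number and 0.0768 without it, and Ep300 of 0.000791 and 0.0779. The class I deacetylases Hdac1, Hdac2 and Hdac3 were in the higher group, with log2 fold changes of 0.46, 0.55 and 0.22 and adjusted p of 0.00231, 0.00373 and 0.0290 with the number, against 0.0550, 0.236 and 0.110 without it. All 4 class I members were above 0 in either sex, the lowest at 0.14 in males and 0.18 in females.

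**Figure D3:**
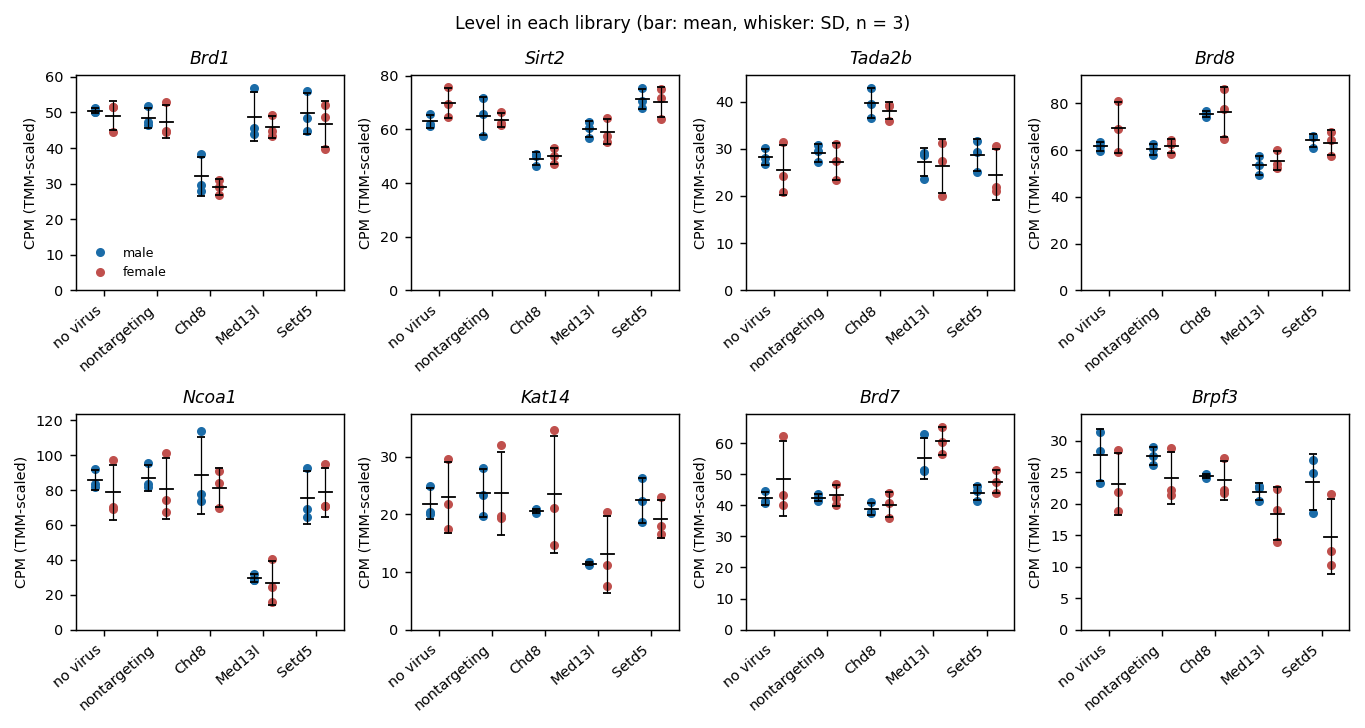
CPM of 8 called members in each library (points; blue male, red female) without virus, with nontargeting shRNA and after Chd8, Med13l or Setd5 shRNA. Bars are means and whiskers SD of 3 libraries; in the Chd8 columns Brd1 and Sirt2 lie below and Tada2b and Brd8 above the controls of their sex, and in the Med13l columns Ncoa1 lies below and Brd7 above them.

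Setd5 shRNA gave a single call among members, in females, which is 2.04% of the 49 beside 3.12% of all genes. Brpf3 (chr17:28801090-28839949, plus strand), a scaffold of the Kat7 complex, had 10.3, 21.5 and 12.5 CPM against 21.3, 28.8 and 22.1 CPM. Replicate 2 was highest in both groups and the groups overlapped. Its log2 fold change was -0.71 ± 0.208 (adjusted p = 0.0441). The call was lost without nontargeting replicate 1, 2 or 3 (0.0665, 0.171 and 0.0749), without Setd5 replicate 3 (0.159), with no filter (0.0736) and against no virus (0.0621). It was also lost without Setd5 replicate 1, the library with Y-linked counts (0.451). Of all genes, 1.35%, 3.21% and 1.55% were called without nontargeting replicate 1, 2 or 3, 2.45% without Setd5 replicate 3 and 0.526% without Setd5 replicate 1. Without Setd5 replicate 2 there were 6 calls among members (12.2%), beside 8.53% of all genes. Of the cell markers, 1 of 3 for inhibitory neurons was called lower (sums of 893 to 1314 CPM against 927 to 1307) and 1 of 4 for proliferating cells (1.80 to 3.28 against 3.07 to 7.48 CPM), and their part in the result was not tested. The numbers paired these libraries, and with the number in the model 4 members (8.16%) were called, beside 13.0% of all genes. They were Brpf3, Hdac5 (-0.65), Hdac6 (-0.33) and Kat8 (0.55), the last a histone H4 acetyltransferase. Kat8 had 50.7, 21.8 and 30.6 CPM against 21.4, 25.3 and 23.8 CPM, so replicate 1, the library with Y-linked counts, was far above the rest and replicate 2 was below 2 of the controls. Without replicate 1, in the model with no replicate number, Kat8 was at 0.15 (adjusted p = 0.904), Hdac5 at -0.38 (0.825) and Hdac6 at -0.21 (0.842).

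In males Brpf3 had 26.9, 18.5 and 24.9 CPM after Setd5 shRNA against 27.6, 26.2 and 29.0 CPM. The 26.9 belongs to the library labelled Setd5 replicate 1, in which Setd5 was at the control level, and the library labelled Kdm6b replicate 1, in which Setd5 was low, had 15.1 CPM. The log2 fold change was -0.24 ± 0.204 with all 3 libraries and -0.35 ± 0.230 without replicate 1 (adjusted p = 1 and 0.870). The difference between the sexes was 0.47 (95% interval -0.11 to 1.06), and it was 0.16 ± 0.311 with both libraries labelled Setd5 replicate 1 left out. In that fit 0 members were called in females, beside 0.818% of all genes.

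Kmt2c shRNA gave 0 calls among members in the main model, and Brd8 was the 1 member called in each sex with the replicate number in it. Brd8 levels were 45.2, 46.2 and 44.5 CPM in males against 62.7, 58.1 and 60.3 CPM, and 45.5, 46.4 and 49.6 CPM in females against 62.7, 58.4 and 64.3 CPM. The groups did not overlap in either sex. The log2 fold changes were -0.42 ± 0.0972 and -0.39 ± 0.0973, with adjusted p of 0.0888 and 0.108. With the replicate number in the model they were 0.00331 and 0.00573, beside 0.434% and 1.09% of all genes called, and DESeq2 and the no virus controls called Brd8 in both sexes as well. In the main model 0.0867% of genes were called in males and 0.0991% in females.

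Ash1l shRNA gave 0 calls among members, beside 1.98% of all genes in males and 1.10% in females. Ncoa1 stood at 48.6, 46.6 and 72.1 CPM in males against 81.7, 83.6 and 95.7 CPM, and at 34.6, 62.3 and 49.4 CPM in females against 67.4, 101 and 74.3 CPM. Every Ash1l library was below every control of its sex. The log2 fold changes were -0.64 ± 0.214 (adjusted p = 0.127) and -0.73 ± 0.215 (adjusted p = 0.0899), and 1 member was called in females without Ash1l replicate 2, beside 1.57% of all genes in that fit. In females, where the numbers paired the libraries, 3 members (6.12%) were called with the number in the model, beside 4.43% of all genes. Ncoa1 (0.000456) and Brpf3 (0.0113) were lower and Brd2 (0.00582) was higher. Inhibitory neuron markers summed to 463 to 682 CPM in females and 558 to 712 CPM in males, below the controls given above, with 2 of 3 called lower in each sex. Excitatory neuron markers were above the controls, at 870 to 916 CPM against 718 to 753 in females and 780 to 1002 against 610 to 673 in males, with 1 of 4 called higher in each sex. The part of these shifts in the results was not tested.

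Brpf3 was also called lower after Dnmt3a shRNA when the replicate number was in the model. It had 13.8, 17.2 and 19.9 CPM in males against 27.6, 26.2 and 29.0 CPM, and 10.6, 20.5 and 15.0 CPM in females against 21.3, 28.8 and 22.1 CPM, with no overlap in either sex. The log2 fold changes were -0.70 ± 0.206 and -0.64 ± 0.206, with adjusted p of 0.322 and 0.400 in the main model, where 0.111% and 0.118% of all genes were called. With the number they were 0.00487 and 0.00980, beside 1.46% and 1.29% of genes. The correlations behind this pairing were 0.10 to 0.23 in males, the lowest just at the limit, and 0.30 to 0.64 in females. After Tbr1 shRNA in males Ncoa2 was the 1 member called with the number (log2 fold change -0.48, adjusted p = 0.0349 against 0.889 without it), beside 1.75% of genes with the number and 0.217% without. Kdm6b shRNA gave 0 calls among members in the main model, beside 0.0867% of all genes in males and 0 genes in females, and Mbd5 shRNA gave 0, beside 0.0619% and 0.0557%. The members' log2 fold changes there lay between -0.40 and 0.39. Setd5 shRNA in males and Tbr1 shRNA in females also gave 0, beside 0.0557% and 0.0619% of all genes. As given above, Kdm6b in either sex and Setd5 in males were not themselves called after their own shRNA.

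Some members lay on one side of 0 throughout, in comparisons that share the 3 control libraries of their sex. Brpf3 was below 0 in all 18, from -0.71 to -0.02, and was called in 1 in the main model. Hdac6, a cytoplasmic tubulin deacetylase, was below 0 in all 18, with -0.33 at the lowest, and had no call in that model. Hdac2 was above 0 in all 18, from 0.04 to 0.55, and Tada2a, an ATAC adaptor, from 0.01 to 0.27, both with no call in that model. With the replicate number in the model, Brpf3 was called in 6, Hdac6 in 5, Hdac2 in 2 and Tada2a in 0. These counts are over all 18, also those whose numbers did not pair the libraries. Because of the shared controls the 18 values are not repeated observations. Sin3a and Sin3b, the scaffolds of the SIN3 deacetylase complex, stayed between -0.12 and 0.28 with no call, and Kat2a and Kat5 between -0.18 and 0.15.

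The sexes had no library in common. Over the 49 members the log2 fold changes in males and females had a Pearson r of 0.94 for Med13l and 0.89 for Chd8, given as a description across genes that are not independent. It was 0.82 for Ash1l, 0.75 for Dnmt3a, 0.74 for Tbr1, 0.61 for Kdm6b, 0.47 for Setd5, 0.46 for Kmt2c and 0.39 for Mbd5. The male groups of Kdm6b and Setd5 each hold a replicate 1 library whose target levels go against its label. The female Setd5 group holds the library with Y-linked counts. In the tests of the male minus female effect, 0 members were called for any target with edgeR or DESeq2. Of all genes, edgeR called 0.0186% for Setd5 and 0 for the other 8 targets, and DESeq2 called 1 gene for Kmt2c, 1 for Mbd5 and 0 for the others. At an unadjusted p under 0.05 there were 2 members, both for Setd5: Sirt1 (-0.62, 95% interval -1.19 to -0.04) and Kat8 (-0.52, -1.03 to -0.02). Both arms of this contrast hold a library in question, replicate 1 in either sex. The male one had Setd5 at the control level, and the female one had counts of Ddx3y and Kdm5d but none of Uty. With both libraries left out, a fit chosen after seeing the data, the differences were -0.55 for Sirt1 and -0.11 for Kat8. Neither had an unadjusted p under 0.05 (0.104 and 0.654). Between nontargeting male and female cultures 0 members were called, also at an unadjusted p under 0.05 and with DESeq2, beside 0.0434% of all genes. Between nontargeting shRNA and no virus 0 members were called in either sex by edgeR or DESeq2, none at an unadjusted p under 0.05, and edgeR called 0 of all genes, while DESeq2 called 1 in females.

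**Figure D4:**
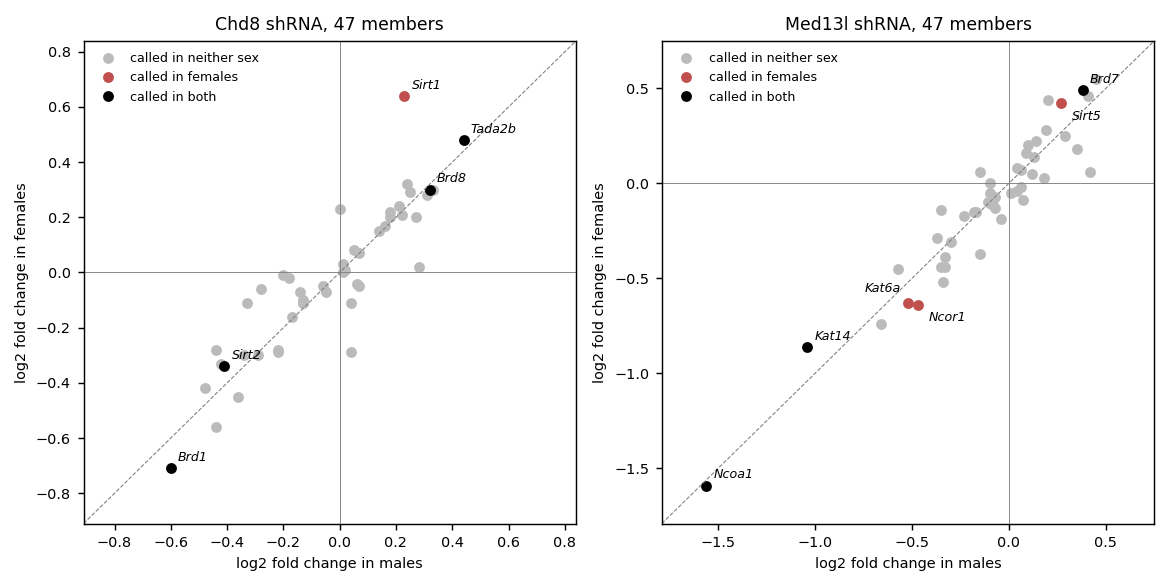
log2 fold change in males (x) and females (y) for 47 of the 49 members after Chd8 shRNA (left) and Med13l shRNA (right), with the line of equal change dashed. Black points were called in both sexes and red points in females; Brd1 and Ncoa1 lie at the low ends, with r of 0.89 and 0.94 over all 49.

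Exon length moved with the Med13l values of the members. Spearman's rho between merged exon length and log2 fold change was -0.62 in males and -0.66 in females over the 49 members, against -0.14 and -0.26 over 15737 genes with a length. After Chd8 shRNA it was -0.16 and -0.10, against -0.02 and -0.02. In the other 14 comparisons it ran from -0.63 for Kmt2c in females (against -0.27 over all genes) to 0.44 for Kdm6b in females (against 0.14). It was -0.42 and -0.43 for Dnmt3a and -0.43 for both Mbd5 and Tbr1 in males, where no member was called in the main model. These are descriptions across genes measured in the same libraries, and the part of transcript length in the calls was not tested. The long members Crebbp (13540 bases), Ncor1 (12811) and Kat6a (9180) were at -0.74, -0.64 and -0.63 after Med13l shRNA in females. The lowest values belonged to Ncoa1 (8576 bases) and Kat14 (4699 bases), both shorter than these 3.

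**Figure D5:**
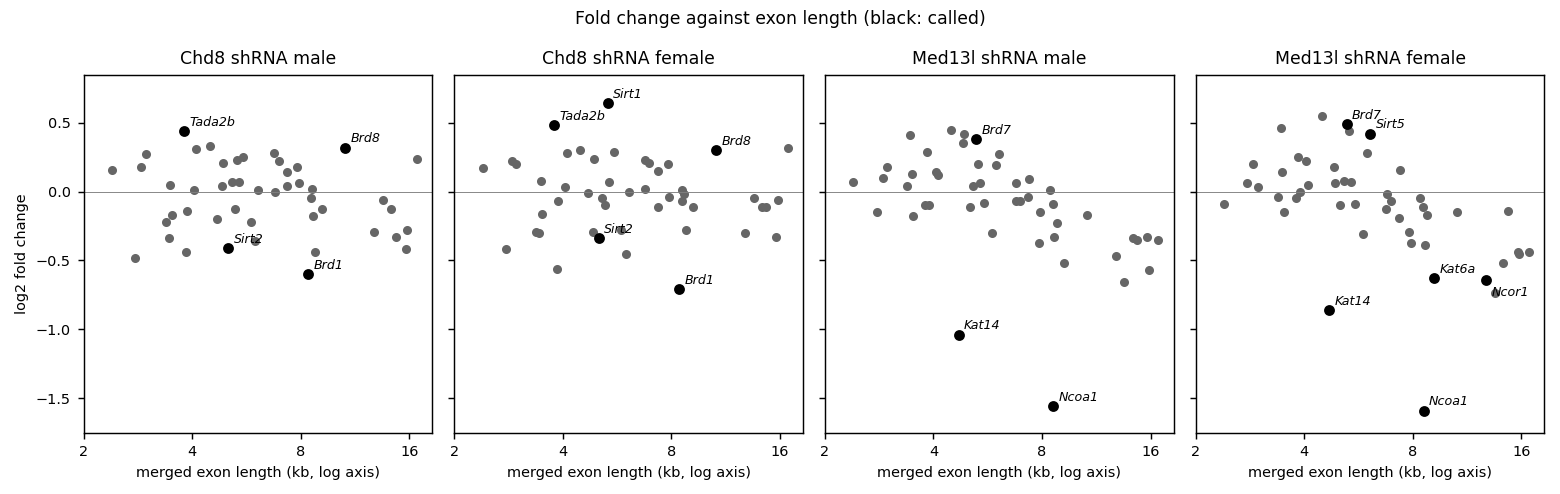
log2 fold change of 47 of the 49 members against merged exon length (kb, log axis) after Chd8 and Med13l shRNA in each sex. Black points were called; the Med13l panels slope down (rho -0.62 and -0.66 over all 49) and the Chd8 panels less so (-0.16 and -0.10), with Ncoa1 and Kat14 below the rest.

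Another 126 genes of the same machinery, partner subunits of the complexes, other readers and acetyl-CoA enzymes in 11 lists, were all tested. They gave 89 calls over the 18 comparisons, 35 higher and 54 lower. Chd8 shRNA gave 19 in males (15.1%) and 13 in females (10.3%), Med13l shRNA 21 (16.7%) and 23 (18.3%), Setd5 shRNA 6 in females (4.76%), Ash1l shRNA 3 in each sex (2.38%) and Dnmt3a shRNA 1 in females. Of all genes 9.82% and 9.33% were called for Chd8, 8.06% and 10.2% for Med13l, 3.12% for Setd5 in females and 1.98% and 1.10% for Ash1l, each from the same fit. Over the 18 fits together 3.92% of the partner genes were called, beside 2.48% of all genes, and with the replicate number in the model 9.66% beside 7.40%. The total was 65 to 80 when 1 nontargeting library was left out. Of the 89 calls, 33 were kept in each of the 6 fits that left out 1 library of their groups. Of the 6 for Setd5 in females, 5 were lost without replicate 1, the library with Y-linked counts.

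In the SAGA and ATAC list of 18 genes, Chd8 shRNA lowered 2 and raised 1 in each sex. Atxn7l3, which activates the SAGA deubiquitinase, was at 0.378 of control in males and in females (log2 -1.40 ± 0.143 in each, adjusted p = 2.36e-10 and 2.46e-10). Med13l shRNA raised 2 and lowered 1 in each sex, among them Sgf29, a reader subunit, at 1.97-fold and 2.0-fold (adjusted p = 4.43e-05 and 2.54e-05). Taf9b was lower after Ash1l shRNA, with log2 values of -1.34 ± 0.202 and -1.28 ± 0.201 (adjusted p = 1.31e-05 and 5.98e-05), and after Chd8 shRNA (-0.95 and -1.02, adjusted p = 0.000743 and 0.000296). In the TIP60 list of 15 genes, Yeats4, an acetyl-lysine reader, fell after Med13l shRNA (log2 -0.91 and -0.85, adjusted p = 0.000664 and 0.00131). The helicase Ruvbl1 rose there in females (log2 0.55, adjusted p = 0.00241), and 3 of the 15 rose and 2 fell in females. Ing3, a histone H3 methyl-lysine reader, rose after Chd8 shRNA (0.55 and 0.59, adjusted p = 0.0164 and 0.0101). Without 1 library the calls named here were kept, apart from Ing3, which was lost without nontargeting replicate 2 in males (0.115) and without nontargeting replicate 3 or Chd8 replicate 1 in females (0.0533 and 0.179).

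Among the deacetylase partners, Sap30 of the SIN3 complex rose after Med13l shRNA (log2 1.37 ± 0.337 in males and 1.51 ± 0.337 in females, adjusted p = 0.00549 and 0.00170), while Sap130 of the same complex fell (-1.03 and -0.91, adjusted p = 0.00369 and 0.00887). Ing2, another subunit of it, rose in females (0.75, adjusted p = 0.0110). In the CoREST list of 10 genes, 3 fell after Chd8 shRNA in males, and 3 fell and 1 rose in females. Rcor1, the CoREST scaffold, was at 0.566 and 0.559 of control (adjusted p = 0.00359 and 0.00309) and Rcor3 at 0.550 and 0.554 (0.00513 and 0.00637). Rcor1 was also lower after Med13l shRNA (log2 -0.69 and -0.71, adjusted p = 0.0205 and 0.0125). In the NuRD list of 12 genes Mbd2 fell after Chd8 shRNA in males (log2 -0.68, adjusted p = 0.00226) and Rbbp7, a histone chaperone, rose after Med13l shRNA (0.33 and 0.38, 0.0333 and 0.00973). Mta2 of the same list rose after Setd5 shRNA in females (0.42, adjusted p = 0.0339). In the NCoR and MiDAC list of 6 genes only Tbl1x was called, lower after Med13l shRNA (-0.38 and -0.37, 0.00548 and 0.00660). The calls of Rcor1 after Chd8 shRNA, and those of Mbd2, male Rcor3, male Sap130 and male Tbl1x, were kept without any 1 library. The Rcor1 calls after Med13l shRNA were lost in 4 of 6 such fits in males and 3 of 6 in females (up to 0.0966 and 0.292). Without Med13l female replicate 1 those of Sap30 (0.0588), Sap130 (0.186), Ing2 (0.0739), Rbbp7 (0.0816) and Tbl1x (0.169) were lost in females. Without nontargeting female replicate 2 those of Sap130 (0.148), Ing2 (0.0905) and Tbl1x (0.0698) were lost, and Ing2 was also lost without Med13l replicate 3 (0.0840). In males Sap30 was lost without nontargeting replicate 3 (0.0764) and Rbbp7 without any 1 of 6 libraries (0.0508 to 0.122). Rcor3 was lost in females without Chd8 replicate 3 (0.0661). Mta2 was lost without nontargeting replicate 1, 2 or 3 (0.0898, 0.10 and 0.0813) and without Setd5 replicate 1 (0.766).

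Of 25 other readers, Zmynd11, which binds histone H3.3 methylated at lysine, fell after Med13l shRNA (log2 -0.94 ± 0.10 and -0.96 ± 0.10, adjusted p = 1.56e-09 and 9.84e-10). Mllt3, a YEATS reader of the super elongation complex, fell after Ash1l shRNA (-0.75 and -0.65, adjusted p = 0.000385 and 0.00490), and Dpf2, a BAF subunit, rose after Med13l shRNA in females (0.67, 0.00717). In the MOZ, MORF and HBO1 list of 5 genes Jade3 was lower after Med13l shRNA (-0.60 and -0.77, 0.0206 and 0.00184) and higher after Chd8 shRNA in males (0.57, 0.0213), and Jade2 was lower after Chd8 shRNA (-0.59 and -0.78, 0.0437 and 0.00603). Ing5 of the same list was lower after Med13l shRNA (-0.41 and -0.44, 0.0331 and 0.0165) and higher after Chd8 shRNA in males (0.43, 0.0181). In the MSL and NSL list of 10 genes Msl1 and Kansl1 were higher after Setd5 shRNA in females (0.42 and 0.34, 0.0261 and 0.0468), and Kansl1 was lower after Chd8 shRNA in males (-0.32, 0.0268). Mcrs1 was higher after Med13l shRNA in males (0.49, 0.0381). Of 5 other acetyltransferases Gtf3c4, a subunit of the RNA polymerase III factor TFIIIC, fell after Chd8 shRNA (-0.80 and -0.84, 2.01e-05 and 1.01e-05). Naa40, an N-terminal acetyltransferase of histones, was higher after Setd5 shRNA in females (0.48, 0.00592) and after Chd8 shRNA in males (0.40, 0.00955). Elp3, the catalytic subunit of Elongator, was higher after Chd8 shRNA in males (0.26, 0.0346). The calls of Zmynd11, Gtf3c4, male Mllt3 after Ash1l shRNA and female Jade2 were kept without any 1 library. Mllt3 was lost in females without Ash1l replicate 1 (0.0646), Dpf2 without nontargeting replicate 1 (0.0831) and Jade3 in females without Med13l replicate 1 (0.0642). The other calls named here were each lost in 2 to 6 of 6 such fits. Among them, without Setd5 replicate 1, were Msl1 (0.153), Kansl1 (0.714) and Naa40 (0.0873).

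Of 7 genes that supply acetyl-CoA or NAD, Slc25a1, the mitochondrial citrate carrier, showed the largest change. It was at 0.196 of control in males and 0.274 in females after Med13l shRNA (log2 -2.35 ± 0.207 and -1.87 ± 0.203, adjusted p = 5.60e-12 and 3.40e-09). After Chd8 shRNA it was at 0.478 and 0.50 (adjusted p = 0.000139 and 0.000344). Nadk, the NAD kinase, was lower after Med13l shRNA (log2 -0.39 and -0.38, adjusted p = 0.00563 and 0.00634), and Acss2, which makes acetyl-CoA from acetate, in males (-0.48, 0.0246). The Slc25a1 calls and that of Nadk in males were kept without any 1 library. Nadk was lost in females without Med13l replicate 1 (0.0695), and Acss2 without any 1 of 6 libraries (0.0527 to 0.119).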

How the data were processed

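PolyA RNA of 66 cultures was sequenced (TruSeq Stranded mRNA, per the labels). The authors deposited raw read counts per gene, made with STAR and featureCounts on mm10, per the submitters' processing notes; the annotation, the strand setting and tool versions are not given in the sources used here. Control columns named Luc were taken as the nontargeting libraries, and 6 library columns of no sample were not used. Of 48716 rows, 18483 had no symbol (0.690% to 1.41% of counts) and were left out, and 149 rows repeating a symbol were summed.

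edgeR 4.0.16 (R 4.3.3, limma 3.58.1) was run with TMM factors (0.874 to 1.06), filterByExpr and the robust quasi-likelihood test, with 1 mean per group over all 66 libraries and Benjamini-Hochberg adjustment over 16145 genes at 0.05. CPM are TMM-scaled. Depth was 13759741 to 66558546 counts per library. Libraries of a group differed by more than counting noise (chi-square per gene 7.92 to 386). Alternatives were DESeq2 1.42.0, no filter, no virus controls, the replicate number as a block, and leaving out each library. The fits that left out a library had no replicate number in the model, also where the numbers paired the libraries. The scripts were tested on simulated data. Python 3.11.15, pandas 2.3.3, scipy 1.17.1 and matplotlib 3.10.9 were used for annotation and figures. Gene positions and exon lengths are those of GENCODE M21, and upstream sequences those of RefSeq (GRCm38.p6).

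The labels give each group replicates 1 to 3. The numbers were taken to pair libraries where the deviations of all 3 same-numbered pairs from their group means correlated above 0.1, which held for 8 of 9 female and 6 of 9 male knockdowns. It did not hold for Kdm6b in females, or for Ash1l, Kdm6b and Med13l in males.

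The members were set by symbol. The gene lists were written with earlier results of these data, on other genes and overall counts, known. Named with values were members called in both sexes, up to 6 called members per comparison, the smallest p of a role with no call, up to 4 members with 1 sign throughout, and up to 3 called partners per list. Members called only with the block were named after their values were seen. A few genes of these lists are not reported here by name, and 2 tested members are not drawn in the plots of all members.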

Additional observations from a re-analysis of the deposited data

How the results depend on the processing

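The log2 fold changes of members called with or without the replicate block and of the 89 partner calls kept their direction in each alternative run. The male minus female differences after Med13l shRNA changed sign without 1 library for Ncoa1 (-0.23 to 0.44), Ncor1 (-0.03 to 0.38) and Kat6a (-0.19 to 0.38). Of the 19 member calls, DESeq2 and the replicate block kept 19, no virus controls 15 and the unfiltered fit of 24041 genes 9, and 47 of 114 fits that left out 1 library lost the call. With the replicate block the counts of members called were 5 and 3 for Ash1l (males, then females), 12 and 13 for Chd8, 1 and 1 for Dnmt3a, 1 for Kdm6b in males, 1 and 1 for Kmt2c, 15 and 20 for Med13l, 4 for Setd5 in females and 1 for Tbr1 in males, and 219 against 89 for partner genes (9.66% against 3.92%, beside 7.40% against 2.48% of all genes). For Ash1l, Kdm6b and Med13l in males the numbers did not pair the libraries. There 10.2%, 2.04% and 30.6% of members were called, beside 8.27%, 3.20% and 23.8% of all genes. The block was not run for male against female nontargeting cultures, since it lies within a sex. With DESeq2 the count was 1 for Ash1l in females, 1 and 1 for Kmt2c and 2 for Setd5 in females. DESeq2 called 1.63% of all genes for Ash1l there, 0.130% and 0.242% for Kmt2c, and 757 of 16145 genes for Setd5. Against no virus it was 1 and 1 for Kmt2c and 10 for Med13l in females. With no filter it was 2 and 2 for Chd8, 3 for Med13l in females and 0 for Setd5 in females. More genes were tested there, and the share of them called is not given here. Leaving out 1 library gave 0 to 1 for Ash1l in females, 1 to 4 and 1 to 5 for Chd8, 1 to 3 and 2 to 14 for Med13l, 0 to 6 for Setd5 in females and 65 to 80 for partner genes, with 0 in each fit for the other comparisons. Of the partner calls, DESeq2 and the block kept 89, no virus controls 76 and the unfiltered fit 66, and 183 of 534 fits that left out 1 library lost the call. With both libraries labelled Setd5 replicate 1 left out, chosen after seeing the data as were the partner refits, 0 members were called for Setd5 in females. For the count of partner calls and the male against female effects, only nontargeting libraries were left out. The cause of these changes was not tested. No tested member had fewer than 92 counts in any library.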
